A study of Mus musculus with 24 samples.

Results

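The zebrin stripe genes are 7 genes whose expression in cerebellar Purkinje cells is striped or restricted to some lobules: Aldoc, Plcb3, Slc1a6, Plcb4, Ebf2, Prkcd and Hspb1. They were listed by symbol and matched to the gene identifiers of the count files through the GENCODE M21 mouse annotation. The 7 genes are part of 54232 in the files, and all 7 passed the filter on low counts that left 22502 genes for testing. Aldoc, Plcb3 and Slc1a6 are the zebrin-positive genes, Plcb4 is the zebrin-negative gene, and the other 3 follow patterns of their own.

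Purkinje cells look alike but are molecularly divided. Bands of cells that contain aldolase C, the antigen known as zebrin II, alternate with bands that lack it, and the bands differ in their inputs, firing and signaling. Zebrin-positive cells use phospholipase C beta 3 in glutamate signalling and carry more of the glutamate transporter EAAT4, whereas zebrin-negative cells use phospholipase C beta 4. In several mouse ataxias Purkinje cells of the zebrin-negative bands are lost earlier.

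The data are RNA-seq counts from whole cerebella of 24 mice aged 6 weeks, all on a C57BL/6J background. The 8 WT mice carried Atxn1 2Q/2Q, the 4 SCA1 mice Atxn1 154Q/2Q, the 4 SCA1 S776A mice Atxn1 154Q[S776A]/2Q, the 4 S776A double mice Atxn1 154Q[S776A]/2Q[S776A] and the 4 WT S776A homozygous mice Atxn1 2Q[S776A]/2Q[S776A]. SCA1 (spinocerebellar ataxia type 1) is caused by an expanded CAG repeat in Atxn1, which the 154Q knockin allele carries at the endogenous locus and hence in every cell type that uses the gene. S776A replaces a phosphorylated serine of ATXN1 by alanine, was introduced by CRISPR/Cas9 together with synonymous changes, and came from a small number of founder lines. The founder line of each sequenced mouse was not used here, and the labels give no sex. Xist, the RNA that coats the inactive X chromosome of females, was at 459 to 830 CPM (counts scaled to the normalized library size) in 5 libraries (S776A double mouse 1, WT S776A homozygous mice 3 and 4 and WT mice 6 and 7) and at 0.116 to 1.04 CPM in the other 19. The question here is whether the expanded allele, with or without S776A, or S776A alone goes with a different level of the striped genes.

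The libraries held 62163600 to 88430180 fragments on genes. The sequencing batch was inferred from mapping statistics, without any gene. It placed the SCA1, SCA1 S776A and S776A double mice and WT mice 1 to 4 in batch 1, and WT mice 5 to 8 with the WT S776A homozygous mice in batch 2. The reference of each genotype was the 4 WT mice that shared its batch. All 12 Purkinje cell markers of a fixed list were tested and none was at or under 3 counts in all mice of any group. WT S776A homozygous mice 3 and 4 stood apart from the other libraries. Mitochondrial genes took 4.82% and 6.73% of their gene counts, against 3.01% to 4.38% in the other 22 libraries, and GC-rich genes were low in them relative to AT-rich genes. Most results that rest on these 2 libraries are given with and without them. The correlations with marker lists, and some of those between single genes, are given with them only.

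Levels were compared between the genes as CPM, the counts scaled to the TMM-normalized library size, per kilobase of merged exons. In WT mice of batch 1 the order was Aldoc at 610 ± 50.1 (SD, n = 4), Slc1a6 at 109 ± 8.43, Plcb4 at 41.3 ± 1.48, Prkcd at 16.9 ± 1.79, Plcb3 at 13.2 ± 1.09, Hspb1 at 6.52 ± 0.452 and Ebf2 at 1.26 ± 0.124 CPM per kilobase. The means of neighbours in this order lay further apart than their SDs. In WT mice of batch 2 the order changed at one place, because Hspb1 at 10.9 ± 0.95 and Plcb3 at 10.3 ± 0.772 CPM per kilobase differed by less than their spread. Aldoc was thus by far the most abundant striped gene per length in whole cerebellum. It is also used by astrocytes and Bergmann glia, so its level does not come from Purkinje cells alone. In bulk tissue, fewer cells of a type and less RNA per cell cannot be told apart.

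The 2 batches gave different WT levels for some of the genes. Plcb3 was at 92.0 ± 7.58 CPM in WT mice of batch 1 and 72.0 ± 5.37 CPM in those of batch 2 (SD, n = 4 each). Hspb1 lay the other way, at 6.73 ± 0.466 and 11.3 ± 0.979 CPM. The WT mice of the other batch were therefore not used as a reference for a genotype.

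**Figure D1:**
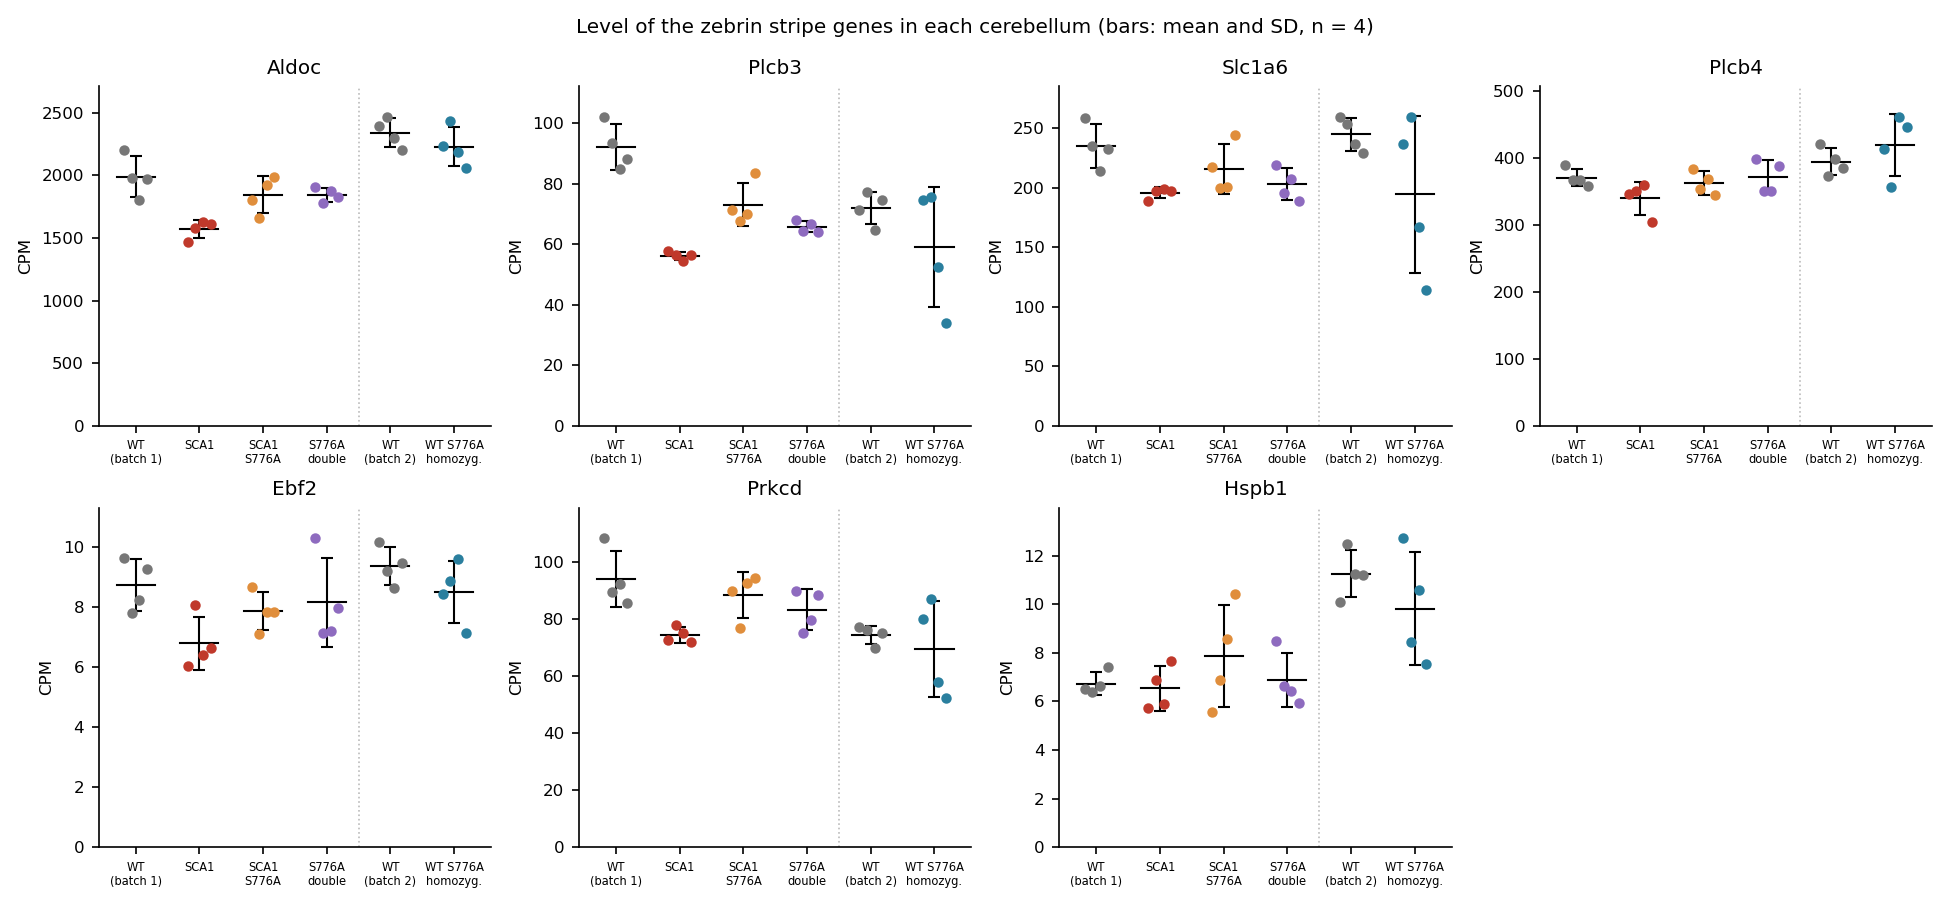
Level of each of the 7 genes in CPM (vertical axis, from 0) in every mouse, by genotype and batch (horizontal axis). Points are mice, lines and bars are the mean and SD of 4 mice, and the dotted line separates the inferred batches. The 4 SCA1 mice lie below the 4 WT mice of batch 1 for Aldoc, Plcb3, Slc1a6 and Prkcd, and WT S776A homozygous mice 3 and 4 are the lowest of their batch for Plcb3, Slc1a6 and Prkcd.

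Plcb3, the zebrin-positive phospholipase C, showed the largest difference of the 7 genes between SCA1 and WT mice. In SCA1 mice it was at 57.7, 56.3, 54.4 and 56.4 CPM, against 102, 93.4, 84.7 and 88.0 CPM in the WT mice of batch 1. The groups did not overlap, and the SCA1 mice were close to each other. The log2 fold change was -0.71 ± 0.153 (SE), a decrease of 38.9%, with an adjusted p of 0.0374 (edgeR quasi-likelihood test, Benjamini-Hochberg over all genes tested).

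Aldoc, the glycolytic enzyme that defines the zebrin bands, was at 1469, 1578, 1628 and 1609 CPM in SCA1 mice and at 2203, 1979, 1804 and 1972 CPM in WT mice. All SCA1 mice were again below all WT mice. Its log2 fold change was -0.34 ± 0.0693, a decrease of 21.0%, with an edgeR adjusted p of 0.0185.

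Slc1a6, which encodes the Purkinje glutamate transporter EAAT4, was at 189, 198, 199 and 197 CPM in SCA1 mice and at 259, 235, 214 and 233 CPM in WT mice. The groups did not overlap here either, although the gap between them was narrow. The log2 fold change of -0.26 ± 0.152 did not pass (edgeR adjusted p = 0.698).

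Plcb4, the zebrin-negative phospholipase C, overlapped between the groups. It was at 346, 350, 360 and 304 CPM in SCA1 mice and at 390, 368, 367 and 359 CPM in WT mice. Its log2 fold change was -0.12 ± 0.0721 (edgeR adjusted p = 0.701), the smallest shift among the 4 genes that define the 2 kinds of band.

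Prkcd encodes protein kinase C delta, which Purkinje cells of the posterior lobules carry. It was at 72.6, 77.8, 75.0 and 72.0 CPM in SCA1 mice and at 108, 89.4, 92.2 and 85.6 CPM in WT mice, with no overlap. The log2 fold change was -0.34 ± 0.114 (edgeR adjusted p = 0.313). Prkcd is also strongly expressed in thalamus, and the 4 thalamus markers summed to 22.3 to 24.2 CPM in SCA1 mice and 23.8 to 26.8 CPM in WT mice of batch 1. This sum rests mostly on Ramp3 (log2 fold change -0.19 ± 0.0962), and the other 3 markers had positive values, with a median of 0.12 over the 4.

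Ebf2, a transcription factor of late-born, zebrin-negative Purkinje cells, was at 6.03, 8.08, 6.41 and 6.63 CPM in SCA1 mice and at 9.65, 7.81, 8.25 and 9.27 CPM in WT mice. SCA1 mouse 2 lay inside the WT range and the others below it (log2 fold change -0.36 ± 0.117, edgeR adjusted p = 0.259). Hspb1, the small heat shock protein HSP25 of restricted Purkinje bands, was at 5.71, 6.88, 5.89 and 7.66 CPM against 6.51, 6.37, 6.62 and 7.41 CPM in WT mice. These groups overlapped fully, with a log2 fold change of -0.04 ± 0.164 (edgeR adjusted p = 0.969).

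None of the 7 genes was called in SCA1 mice at an adjusted p below 0.01 and an absolute log2 fold change above 0.5, thresholds that 0.173% of the 22502 genes passed. At an unadjusted p below 0.05 edgeR had 4 of the 7 and 8.25% of all genes. DESeq2 called 1 of 7, Plcb3, at the thresholds for a call, both with the batch as a covariate and after ComBat-seq. These 2 fits also called more genes over the whole table than edgeR did, and their numbers are given in the last section. At an adjusted p below 0.05 with no minimum fold change, 2 of the 7 genes passed, Plcb3 and Aldoc, both lower in SCA1 mice, where 0.284% of all genes were lower at that threshold. All 4 SCA1 mice were below all 4 WT mice for 4 of the 7 genes (Aldoc, Plcb3, Slc1a6 and Prkcd), against 4.99% of all genes. The median log2 fold change was -0.34 over the 3 zebrin-positive genes and 0.00165 over all genes. Exact two-sided permutation tests of log2 CPM, unadjusted and among 35 such tests, gave p = 0.029 for each of these 4 genes, the smallest p that 4 against 4 mice allow, and p = 0.057 for Plcb4 and Ebf2.

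Whether edgeR called Plcb3 differed when some mice outside the comparison were left out. These mice enter the fit because the spread was estimated over all 24 mice. With all 24 mice kept, a GC offset in edgeR and both DESeq2 fits also called Plcb3. Without WT S776A homozygous mouse 4 its log2 fold change was -0.72 and its adjusted p 3.00e-05, which is a call. Without WT S776A homozygous mice 3 and 4 the adjusted p was 3.12e-07, and 1 of the 7 genes was then called where 0.304% of genes were. When each of the 24 mice was left out in turn, Plcb3 had an adjusted p below 0.05 in 7 fits and Aldoc in 21, and the log2 fold change of Plcb3 stayed between -0.75 and -0.66. Over all alternatives the adjusted p of Plcb3 was between 3.12e-07 and 0.165. Among the markers of other cells, those of the choroid plexus (8 of 8 tested, none at or under 3 counts in all mice of a group) summed to 922 to 5218 CPM in SCA1 mice and 35.6 to 1777 CPM in WT mice of batch 1, and their part in these results was not tested. The 3 unipolar brush cell markers summed to 598 to 655 CPM in SCA1 and 452 to 509 CPM in WT mice. This sum is nearly all Calb2, at 617 ± 32.5 and 461 ± 18.4 CPM (SD, n = 4 each, log2 fold change 0.42 ± 0.0994, edgeR adjusted p = 0.0635). Eomes had the lower mean in SCA1 mice, at 15.2 ± 6.86 against 18.5 ± 11.3 CPM, and Lmx1a the higher, at 2.80 ± 1.07 against 1.83 ± 1.02 CPM. The 6 oligodendrocyte markers summed to 7238 to 8885 CPM and 6681 to 7931 CPM, and all 6 had a positive log2 fold change (median 0.17) with none past an adjusted p of 0.05. The 9 astrocyte and Bergmann glia markers summed to 3340 to 3942 CPM and 3605 to 3901 CPM. The part of these cells was not tested either.

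**Figure D2:**
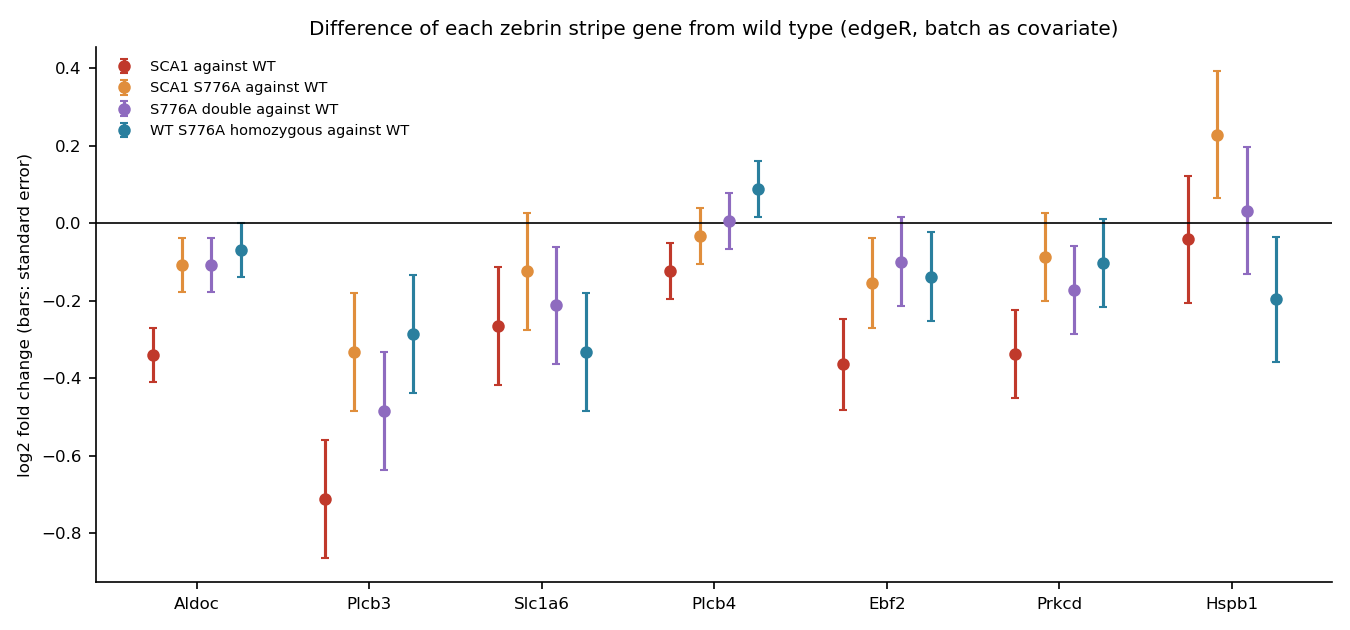
Log2 fold change of each gene (horizontal axis) in the 4 genotypes against WT of the same batch, from edgeR with the batch as a covariate. Points are estimates and bars their standard errors. In this fit of all 24 mice Plcb3 is below 0 in all 4 genotypes, with its lowest value, -0.71, in SCA1 mice, whereas Plcb4 lies between -0.12 and 0.09.

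The Plcb3 gene lies at chr19:6952325-6976470 on the minus strand and Slc1a6 at chr10:78780496-78814765 on the plus strand of GRCm38.p6. The 250 bases before the RefSeq start are shown for these 2 zebrin-positive genes, because in SCA1 mice Plcb3 had the lower log2 fold change, -0.71, and Slc1a6 the one nearest to 0 of the zebrin-positive genes, -0.26. Neither stretch holds bases of an exon of its own gene in GENCODE M21, and that of Plcb3 lies inside a longer gene model. The capitals mark the one match found. Both are written 5′ to 3′ on the gene's strand, Plcb3 at chr19:6969815-6970064 (minus strand) and Slc1a6 at chr10:78780246-78780495 (plus strand):
Plcb3: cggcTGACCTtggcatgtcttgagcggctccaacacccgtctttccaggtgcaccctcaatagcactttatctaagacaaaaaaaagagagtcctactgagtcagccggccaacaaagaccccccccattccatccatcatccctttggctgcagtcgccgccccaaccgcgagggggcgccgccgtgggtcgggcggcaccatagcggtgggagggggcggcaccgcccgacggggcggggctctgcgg
Slc1a6: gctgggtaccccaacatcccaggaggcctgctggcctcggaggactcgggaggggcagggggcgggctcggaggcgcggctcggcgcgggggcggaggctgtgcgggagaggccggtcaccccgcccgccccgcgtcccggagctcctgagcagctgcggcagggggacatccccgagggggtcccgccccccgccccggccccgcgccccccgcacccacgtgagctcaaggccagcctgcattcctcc

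The stretches were searched on both strands for the octamers of CIC, the repressor that binds ATXN1 (TGAATGAA, TGAATGGA, TCAATGAA or TCAATGGA), and for the half-site AGGTCA of ROR alpha, a factor of Purkinje cell maturation. Neither motif contains the other. Of 32851 RefSeq promoter stretches of the same length, 3.19% held a CIC octamer and 14.0% the ROR half-site. Of the 6 zebrin stripe genes with an entry, Plcb3 alone held a match, an ROR half-site on the opposite strand. It starts 246 bases before the RefSeq start and lies inside the longer gene model. These are matches of letters and not measured sites. The stretch before Plcb3 was 64.4% GC, that before Slc1a6 78.8%, and that before the zebrin-negative Plcb4 85.2%.

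Plcb3 overlaps exons of the opposite-strand gene Ppp1r14b, and the counts carry no strand. Ppp1r14b was at 20.6 to 32.8 CPM over the 24 mice and had a log2 fold change of -0.09 ± 0.0884 (edgeR adjusted p = 0.842) in SCA1 mice. Exons of Ebf2 overlap the antisense gene Gm10860, so reads of these 2 cannot be told apart where they overlap.

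In SCA1 S776A mice, in which the expanded protein lacks the phosphorylated serine, the zebrin-positive genes had log2 fold changes of -0.33 (Plcb3), -0.12 (Slc1a6) and -0.11 (Aldoc). Plcb3 was at 71.1, 67.6, 70.1 and 83.4 CPM, below all 4 WT mice of batch 1, of which the lowest was at 84.7 CPM. Mouse 4 was close to the WT range and the other 3 were clear of it. The standard error of its log2 fold change was 0.152, with an edgeR adjusted p of 1.00 over all genes and an exact permutation p of 0.029. Aldoc was at 1806, 1660, 1927 and 1990 CPM, Slc1a6 at 218, 200, 201 and 244 CPM and Plcb4 at 384, 353, 369 and 344 CPM. All 3 overlapped the WT mice. None of the 7 genes was called, where 0.0133% of all genes were, and edgeR had 1 of 7 at an unadjusted p below 0.05, beside 3.93% of all genes, and DESeq2 called 0. Plcb3 was the one gene of 7 with all mice below WT, against 2.52% of all genes. The median log2 fold change of the zebrin-positive genes was -0.12, beside 0.00332 over all genes.

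In S776A double mice Plcb3 was at 68.1, 64.3, 66.6 and 64.1 CPM, below every WT mouse of batch 1. The 4 mice were close to each other and lay between the SCA1 mice and the WT mice. Its log2 fold change was -0.48 ± 0.152, with an edgeR adjusted p of 0.502 and an exact permutation p of 0.029. Aldoc, at 1904, 1778, 1872 and 1828 CPM, overlapped WT. Slc1a6 was at 220, 196, 208 and 189 CPM and only mouse 1 lay inside the WT range (log2 fold change -0.21 ± 0.152, edgeR adjusted p = 0.792). Plcb4 was at 399, 351, 351 and 387 CPM, with a log2 fold change of 0.00 ± 0.0721. None of the 7 was called, where 0.0267% of all genes were; edgeR had 1 of 7 at an unadjusted p below 0.05, beside 6.93% of all genes, and DESeq2 called 0. Plcb3 was again the one gene with all mice below WT, against 3.54% of all genes. Without WT S776A homozygous mice 3 and 4 the adjusted p of Plcb3 was 0.000256 in the S776A double mice and 0.0358 in the SCA1 S776A mice, with log2 fold changes of -0.49 and -0.33 that stayed within the fold threshold. With Xist above 100 CPM as a covariate the log2 fold change of Plcb3 in the S776A double mice was -0.41 ± 0.141 (edgeR adjusted p = 0.678).

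The remaining genes overlapped WT in these 2 genotypes. Prkcd was at 76.8 to 94.4 CPM in SCA1 S776A mice and at 75.0 to 89.8 CPM in S776A double mice, both overlapping the WT range of 85.6 to 108 CPM. Ebf2 was at 7.10 to 8.66 CPM and at 7.14 to 10.3 CPM. Hspb1 spread most, from 5.57 to 10.4 CPM among the SCA1 S776A mice, and its log2 fold change of 0.23 ± 0.164 changed sign to -0.19 without the batch covariate.

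The 3 genotypes with the expanded allele share the WT mice of batch 1 as their reference. Pooled, the 12 mice had a Plcb3 log2 fold change of -0.51 ± 0.121 (edgeR adjusted p = 0.108), and the exact permutation test of 12 against 4 mice gave p = 0.0011, the smallest it allows. Plcb3 was lower than in every WT mouse in 12 of 12. None of the 7 genes was called in the pooled comparison, where 0.0978% of all genes were. At an unadjusted p below 0.05 edgeR had 4 of 7, beside 7.67% of all genes. DESeq2 called 0 with a batch covariate and 1, Plcb3, after ComBat-seq. The share of all genes that DESeq2 called in this comparison is not given here. Without WT S776A homozygous mouse 4 the log2 fold change of Plcb3 was -0.51 with an adjusted p of 0.000145. Without mice 3 and 4 the adjusted p was 8.70e-07, a call, beside 0.154% of all genes. The corresponding exact permutation p was 0.030 for Aldoc, 0.013 for Slc1a6, 0.053 for Prkcd, 0.088 for Ebf2, 0.342 for Plcb4 and 0.762 for Hspb1.

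Direct comparisons set the 3 expanded genotypes against each other. Against SCA1 mice, Plcb3 was higher in SCA1 S776A mice by a log2 fold change of 0.38 ± 0.152 and Aldoc by 0.23 ± 0.0693, with edgeR adjusted p of 1.00 and 0.855. In S776A double mice Aldoc was higher than in SCA1 mice by 0.23 ± 0.0693 (edgeR adjusted p = 0.940) and Plcb3 by 0.23 ± 0.152 (edgeR adjusted p = 1.00). Between the S776A double and SCA1 S776A mice the log2 fold change of Plcb3 was -0.15 ± 0.152. In the comparison of SCA1 S776A with SCA1 mice edgeR called 0 of 7 members and DESeq2 called 0, where 0.00444% of all genes were called, and 3 members had an unadjusted p below 0.05, beside 4.35% of all genes. For S776A double against SCA1 mice both tools called 0 of 7, where 0.0% of genes were called, and 2 had an unadjusted p below 0.05, beside 3.64% of genes. For S776A double against SCA1 S776A mice both called 0 of 7, again beside 0.0% of genes, and 0 had an unadjusted p below 0.05, beside 2.96% of genes.

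The groups themselves were apart for some of these genes. All 4 SCA1 S776A mice were above all 4 SCA1 mice for 3 of the 7 genes (Plcb3, Aldoc and, by a narrow gap, Slc1a6), against 1.73% of all genes. All 4 S776A double mice were above all 4 SCA1 mice for 2 of the 7 (Plcb3 and Aldoc), against 1.57% of all genes. Without WT S776A homozygous mice 3 and 4, which are in neither group but enter the shared spread, the log2 fold change of Plcb3 in SCA1 S776A against SCA1 mice was 0.39 ± 0.0642 with an edgeR adjusted p of 0.0229. With mice of batch 1 only it was 0.38 ± 0.0633, with an adjusted p of 0.0355. Both are under the fold threshold for a call. In S776A double against SCA1 mice Plcb3 had 0.23 ± 0.0642 (edgeR adjusted p = 0.515) and Aldoc 0.24 ± 0.0651 (edgeR adjusted p = 0.515) without those 2 mice.

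The WT S776A homozygous mice carry no expanded allele, and the 4 mice split into 2 pairs. Plcb3 was at 74.5 and 75.4 CPM in mice 1 and 2 and at 52.4 and 33.9 CPM in mice 3 and 4, against 71.4, 77.3, 64.7 and 74.4 CPM in the WT mice of batch 2. Mice 1 and 2 thus lay within the WT range and mice 3 and 4 well below it. Slc1a6 repeated this with 237 and 260 CPM in mice 1 and 2 and 167 and 114 CPM in mice 3 and 4, where WT mice were at 260, 254, 237 and 229 CPM. Mice 3 and 4 were also the homozygous mice with high Xist, and WT mice 6 and 7, which had high Xist too, were at 77.3 and 64.7 CPM for Plcb3 and 254 and 237 CPM for Slc1a6, within the range of the other WT mice for Slc1a6 and on either side of it for Plcb3. Plcb4 went the other way in homozygous mice 3 and 4. It was at 414 and 356 CPM in mice 1 and 2 and at 462 and 446 CPM in mice 3 and 4, both above the highest WT mouse of the batch at 420 CPM.

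Prkcd, at 79.9, 87.1, 57.9 and 52.4 CPM against 69.9 to 77.1 CPM in WT, was also higher in mice 1 and 2 than in mice 3 and 4. Aldoc was at 2237, 2434, 2188 and 2062 CPM against 2200 to 2468 CPM. Ebf2 and Hspb1 were at 7.14 to 9.60 CPM and 7.55 to 12.7 CPM and overlapped WT. None of the 7 genes was called, where 0.0% of all genes were; edgeR had 1 of 7 (Slc1a6) at an unadjusted p below 0.05, beside 9.98% of all genes, and DESeq2 called 0. No member had all 4 mice below WT, against 1.34% of all genes. The log2 fold changes were -0.33 ± 0.152 for Slc1a6, -0.29 ± 0.152 for Plcb3 and 0.09 ± 0.0721 for Plcb4, with edgeR adjusted p of 0.485, 0.515 and 0.632. Without mouse 4 they were -0.15, -0.10 and 0.05, and without mice 3 and 4 they were 0.01, 0.05 and -0.04. With Xist above 100 CPM as a covariate they were -0.37, -0.32 and 0.08. The part of the sex of the mice in these results was otherwise not tested.

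The mean log2 CPM of the 12 Purkinje cell markers sets each striped gene beside other genes of Purkinje cells. In SCA1 mice this mean differed from WT mice of batch 1 by -0.336 (7.15 ± 0.0567 against 7.49 ± 0.0783, SD, n = 4 each). Relative to it, Aldoc differed from WT by -0.00186, Prkcd by 0.00485 and Ebf2 by -0.03 on the log2 scale, so these 3 genes were lower by about as much as the markers. Slc1a6 differed by 0.07 and overlapped WT. Plcb3 still differed by -0.371 and Plcb4 by 0.210, and in both cases the SCA1 mice did not overlap the WT mice. The marker mean was itself lower in SCA1 mice, so a gene with unchanged CPM also lies higher relative to it. Over all genes the median log2 fold change was 0.00165, and the share without overlap on this scale was not computed for any genotype.

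Relative to the Purkinje markers, Plcb3 was again lower than WT and Plcb4 higher in the other expanded genotypes, where the marker mean was lower too. In SCA1 S776A mice the marker mean differed from WT by -0.138, and relative to it Plcb3 differed by -0.196, without overlap, and Plcb4 by 0.105, with overlap. In S776A double mice the marker mean differed by -0.126, Plcb3 by -0.355 and Plcb4 by 0.129, both without overlap. The level of Aldoc relative to the marker mean differed from WT by no more than 0.03 in any of the 4 genotypes. Over the single markers, Rgs8, a regulator of G protein signaling, was at 979 ± 77.2 CPM in SCA1 and 1415 ± 121 CPM in WT mice of batch 1 (SD, n = 4 each), the one marker of 12 with an adjusted p below 0.05 (0.0152, edgeR), and all 12 markers had a negative log2 fold change in SCA1 mice.

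**Figure D3:**
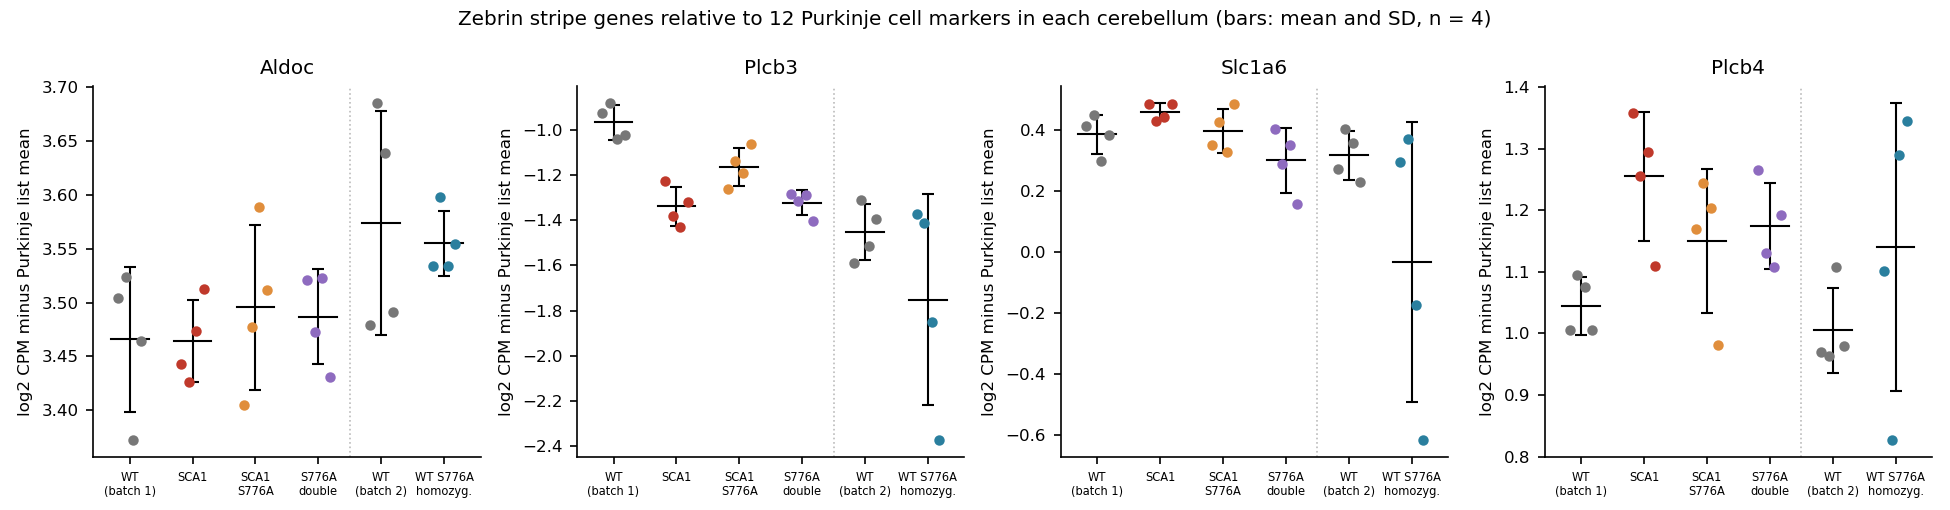
Log2 CPM of Aldoc, Plcb3, Slc1a6 and Plcb4 minus the mean log2 CPM of 12 Purkinje cell markers (vertical axis) in each mouse, by genotype and batch. Lines and bars are the mean and SD of 4 mice. In SCA1 mice the mean of Plcb3 differs from WT of batch 1 by -0.371 and that of Plcb4 by 0.210, whereas that of Aldoc differs by -0.00186.

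The zebrin index sets the zebrin-positive genes against the zebrin-negative one. It is the mean log2 CPM of Aldoc, Plcb3 and Slc1a6 minus the log2 CPM of Plcb4 and is given as a description, without a test. In WT mice of batch 1 it was -0.00877, -0.0645, -0.199 and -0.0630. In SCA1 mice it was -0.458, -0.431, -0.466 and -0.217, all below the lowest WT mouse, with mouse 4 nearest to WT. The SCA1 mean differed from WT by -0.309 (SDs 0.118 and 0.0811). Of its parts, Plcb3 minus Plcb4 differed by -0.58, Aldoc minus Plcb4 by -0.21 and Slc1a6 minus Plcb4 by -0.14. The index therefore rested largely on Plcb3. With Ebf2 added as a second zebrin-negative gene the difference was -0.19. Aldoc, which differed from WT by -0.00186 relative to the Purkinje markers, still lowered the index. Among mice of a group, r with the Purkinje list was 0.06 for Plcb4 and 0.71, 0.61 and 0.55 for Aldoc, Slc1a6 and Plcb3. Within batch 1 these values were 0.35 and 0.77, 0.69 and 0.60, and within batch 2 -0.26 and 0.61, 0.71 and 0.66. The index therefore cannot tell a shift between the bands from a lower level of Purkinje cell markers as a whole.

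In SCA1 S776A mice the index was -0.338, -0.324, -0.296 and -0.00276, with mouse 4 above every WT mouse of batch 1. Its mean differed from WT by -0.156, less than the SD of 0.159 among these mice. Without mouse 4 the difference was -0.235. In S776A double mice the index was -0.384, -0.316, -0.247 and -0.463, all below WT, with a difference of -0.27. In WT S776A homozygous mice it was -0.283, 0.0252, -0.785 and -1.16, against -0.248, -0.0368, -0.280 and -0.203 in WT mice of batch 2. The difference of -0.36 was smaller than the SD of 0.525 among the homozygous mice, and it was -0.16 without mouse 4 and 0.06 without mice 3 and 4.

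**Figure D4:**
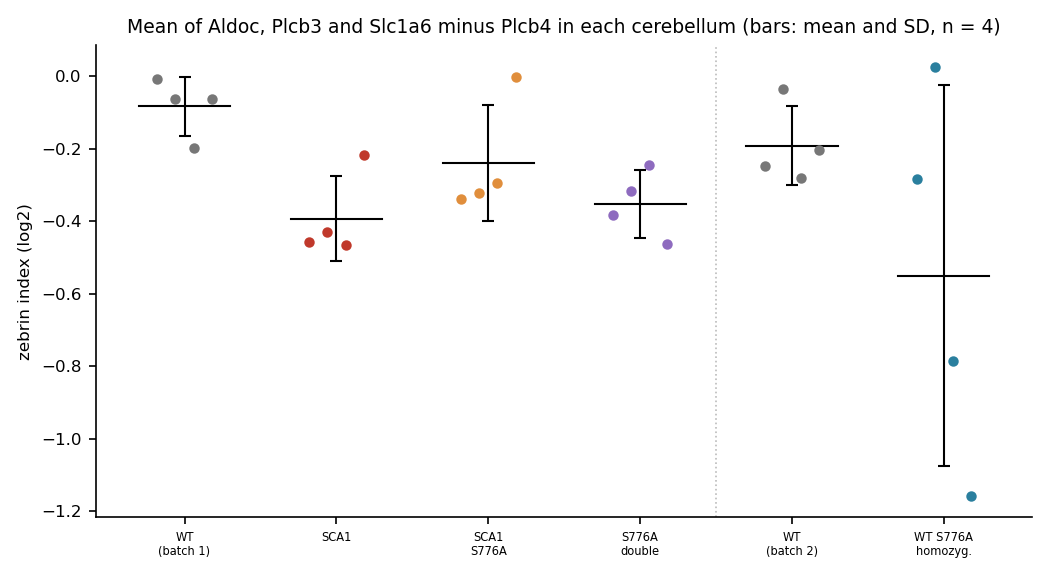
Zebrin index (log2, vertical axis) of each mouse by genotype and batch, with the mean and SD of 4 mice. The 4 SCA1 mice lie between -0.466 and -0.217, below the WT mice of batch 1, and the lowest values are those of WT S776A homozygous mice 4 (-1.16) and 3 (-0.785).

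A property of the libraries moved with this index. The genes differ in base composition: the longest transcript is 56.9% GC for Plcb3 and 56.4% for Slc1a6, above 87.9% and 85.9% of the genes tested, 51.9% for Aldoc, and 43.5% for Plcb4, above 21.3% of genes. The GC tilt of a library is the median log2 difference from WT of its batch in the 20% of genes richest in GC minus that in the 20% poorest in GC. It was -0.295 and -0.590 in WT S776A homozygous mice 3 and 4 and between -0.219 and 0.159 in the other 22 libraries. Its group means were -0.00122 in WT mice of batch 1, -0.0869 in SCA1, -0.0782 in SCA1 S776A and -0.150 in S776A double mice. With the GC trend of each library removed, the index differed from WT by -0.24 in SCA1 mice (SD 0.102) and by -0.17 in S776A double mice (SD 0.0586). In SCA1 S776A mice the difference was -0.10 and in WT S776A homozygous mice -0.25, each smaller than the SD (0.134 and 0.307). Homozygous mice 3 and 4 were then at -0.628 and -0.827 and mice 1 and 2 at -0.342 and -0.132, against -0.303 to -0.142 in WT mice of batch 2. With GC as an offset in the edgeR fit, the log2 fold change of Plcb3 in SCA1 mice was -0.67 ± 0.115 (adjusted p = 0.00457). Whether RNA quality plays a part in what sets mice 3 and 4 apart was not tested.

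**Figure D5:**
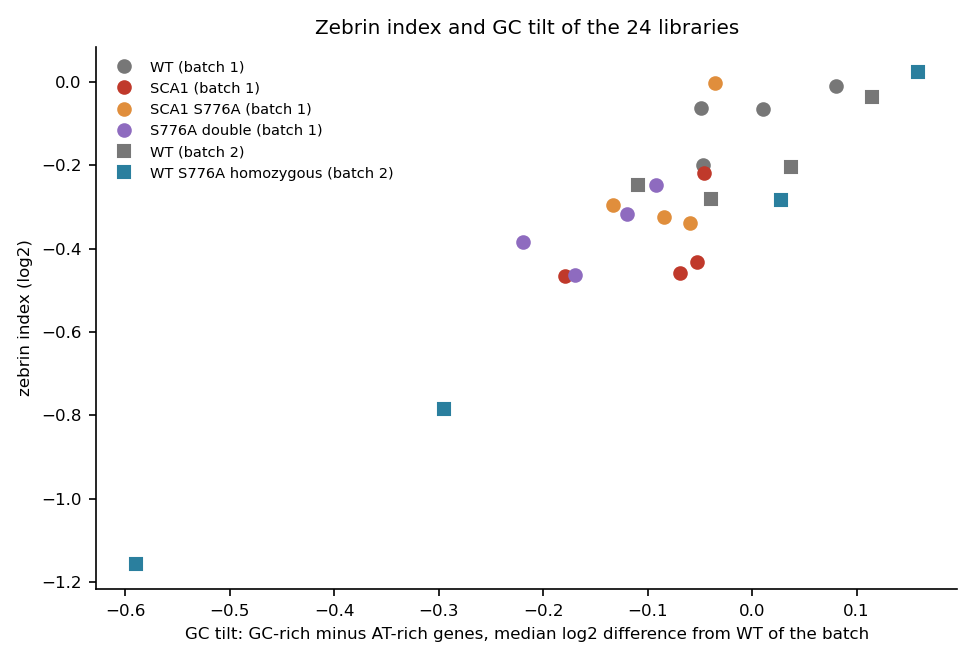
Zebrin index (log2, vertical axis) against the GC tilt of the same library (log2, horizontal axis) for the 24 mice, coloured by genotype, with circles for batch 1 and squares for batch 2. WT S776A homozygous mice 3 and 4 have the lowest GC tilts, -0.295 and -0.590, and the lowest indices.

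Other genes described as zebrin-positive or zebrin-negative were taken from a separate list. Of 5 zebrin-positive genes (Kctd12, Gabbr2, Ncs1, Sphk1 and Th) none passed an adjusted p below 0.05 in SCA1 mice, and their median log2 fold change was -0.26. Gabbr2, a subunit of the GABA-B receptor, was at 248 ± 14.2 CPM in SCA1 and 323 ± 29.0 CPM in WT mice of batch 1 (log2 fold change -0.38 ± 0.143, edgeR adjusted p = 0.417). Kctd12, an auxiliary subunit of that receptor, had -0.17 ± 0.0821 and Ncs1, a calcium sensor, -0.04 ± 0.0701. Of the zebrin-negative genes, Nefh, a neurofilament subunit, had -0.06 ± 0.101.

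The zebrin phospholipases act between glutamate signalling at the membrane and the calcium store, and 5 genes of this route are described. Homer3, a postsynaptic scaffold, was at 154 ± 3.34 CPM in SCA1 and 212 ± 15.9 CPM in WT mice of batch 1 (log2 fold change -0.45 ± 0.0985, edgeR adjusted p = 0.0335), which missed the stricter threshold for a call. Itpr1, the calcium release channel, had -0.48 ± 0.164 and Car8, an inhibitor of Itpr1, -0.29 ± 0.0731, neither of them past an adjusted p of 0.05. The G protein subunits Gnaq and Gna11 had log2 fold changes of -0.06 ± 0.0628 and -0.03 ± 0.0594. In the other 3 genotypes none of the 5 passed an adjusted p below 0.05. Itpr1 and Car8 also belong to the Purkinje marker list.

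Relatives of the zebrin stripe genes from the same families were examined beside them. Of 14 tested in SCA1 mice none had an adjusted p below 0.05, and their median log2 fold change was 0.02. Aldoa, the aldolase of most cells, had 0.06 ± 0.0513, Plcb1 0.09 ± 0.0890, the glial glutamate transporters Slc1a3 and Slc1a2 -0.02 ± 0.0685 and -0.04 ± 0.0612, and Ebf1 0.17 ± 0.0792.

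Variation among mice of one genotype and batch was examined by correlating each gene with the mean of 11 marker lists after centring on the genotype and batch, 77 pairs in all with 24 mice. These values come from one library per mouse and share its composition. Prkcd followed the Purkinje list, with Pearson r = 0.71 (permutation p = 3.00e-05, adjusted p = 0.00154) and Spearman rho = 0.72 (permutation p = 0.00013, adjusted p = 0.00334). Its r was 0.73 without the 2 mice farthest from the median, 0.80 within batch 1 and 0.69 within batch 2. For Aldoc r was 0.71 (permutation p = 0.00296, adjusted p = 0.0380) and rho 0.61 (permutation p = 0.0107, adjusted p = 0.103), with r = 0.68 without those 2 mice and 0.77 and 0.61 within the batches. Slc1a6 and Ebf2 had r of 0.61 (permutation p = 0.00033) and 0.63 (permutation p = 0.00044), both with an adjusted p of 0.00847, and rho of 0.65 (permutation p = 0.00196, adjusted p = 0.0377) and 0.75 (permutation p = 5.00e-05, adjusted p = 0.00231). Without the 2 farthest mice their r was 0.65 and 0.61, and within batches 1 and 2 it was 0.69 and 0.71 for Slc1a6 and 0.58 and 0.77 for Ebf2. Plcb4 had r = 0.06 with the Purkinje list (permutation p = 0.809, adjusted p = 0.854) and rho = 0.20 (permutation p = 0.371, adjusted p = 0.609). Its r had opposite signs in the batches, 0.35 within batch 1 and -0.26 within batch 2, and was -0.07 without the 2 farthest mice. Slc1a6 also had r = 0.54 with the 5 blood vessel markers (permutation p = 0.00356, adjusted p = 0.0392) and rho = 0.66 (permutation p = 0.00456, adjusted p = 0.0585), with r = 0.62 without the 2 farthest mice, 0.56 within batch 1 and 0.88 within batch 2.

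Plcb3 had r = 0.55 with the Purkinje list (permutation p = 0.00546, adjusted p = 0.0526). Its relation to the 6 oligodendrocyte markers was negative, r = -0.70 (permutation p = 0.00132, adjusted p = 0.0203) and rho = -0.67 (permutation p = 0.00259, adjusted p = 0.0399), and it was uneven between batches, at -0.40 in batch 1 and -0.95 in batch 2, which holds WT S776A homozygous mice 3 and 4. Hspb1 followed the 6 heat shock response genes, r = 0.81 (permutation p = 4.00e-05, adjusted p = 0.00154) and rho = 0.82 (permutation p = 6.00e-05, adjusted p = 0.00231), with 0.77 in batch 1 and 0.91 in batch 2 and 0.81 without the 2 farthest mice.

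The genes most alike each zebrin stripe gene were sought among 14883 genes with a mean of at least 1 CPM, by the Pearson r of the log2 difference from WT of the batch over 24 mice. Plcb3 was closest to Doc2b (r = 0.96), Zfp385c (0.96) and Trabd2b (0.95), and these values were 0.95, 0.94 and 0.93 without WT S776A homozygous mice 3 and 4. Among the genes closest to Slc1a6 were Col18a1 and Foxp4 (0.97 and 0.96), which dropped to 0.90 and 0.88 without those mice. Plcb4 was nearest to a different set, Tpr, Strn3 and Ncam2 (0.92, 0.90 and 0.90). Aldoc was nearest to Nsg1, Mdfi and Ywhah (0.90, 0.88 and 0.87), Ebf2 to Gad1, Inpp5a and Plppr5 (0.87, 0.86 and 0.85), Prkcd to Ppp1r16b and Sbk1 (0.95 and 0.94), and Hspb1 to Gpr4, Apba3 and Rundc1 (0.80, 0.78 and 0.78).

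Among themselves, the zebrin-positive genes varied together, and less with Plcb4. Over the 24 mice r was 0.82 between Plcb3 and Slc1a6, 0.79 between Aldoc and Plcb3 and 0.54 between Aldoc and Slc1a6, and 0.88, 0.85 and 0.85 without WT S776A homozygous mice 3 and 4. With Plcb4 the 3 genes had r of -0.01 (Plcb3), -0.35 (Slc1a6) and 0.28 (Aldoc), which became 0.33, 0.26 and 0.41 without those mice, so the negative sign for Slc1a6 rested on them. Varying together was not particular to the zebrin-positive genes. Over the 24 mice Ebf2 had r = 0.71 with Aldoc and 0.63 with Plcb3. Prkcd had r = 0.78 with Aldoc and 0.88 with Plcb3. The highest r of Hspb1 with another member was 0.44, with Slc1a6, which dropped to 0.10 without mice 3 and 4. None of these values was centred on genotype, so differences between genotypes enter them.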

How the data were processed

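One RNA library was sequenced from the cerebellum of each of 24 mice. Per the labels and the study's methods, reads were trimmed with Trimmomatic 0.36 and aligned to GRCm38.p6 with STAR 2.7.2d, and the authors deposited the whole-number counts of fragments per gene without normalization. The authors' later batch correction and DESeq2 1.28.1 test are not in these counts. The unstranded counts were used, since the gene totals of the 2 strands had ratios of 0.9995 to 1.0035. In each file 1 row with no mouse gene identifier was left out, and it and some genes of the lists are not reported here. Of 54232 gene identifiers 54165 matched GENCODE M21 and 67 did not. Matching ignored the version number, and the M21 model of Plcb3 is a later version than that in the files. Promoter sequences came from RefSeq on GRCm38.p6, for 6 of the 7 genes.

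The batch was inferred by k-means on 4 mapping shares (fragments ambiguous, outside genes, mapped to many places or not at all) (mean silhouette 0.634). Counts were normalized by TMM (factors 0.944 to 1.06) and all 24 mice were fitted with genotype and batch by the robust quasi-likelihood method of edgeR 4.0.16 (R 4.3.3), with Benjamini-Hochberg adjustment. Log2 CPM used a prior count of 2. Depth was 62163600 to 88430180 fragments on genes, and counting error is small beside the spread between mice. Labels give separate mice, and p-values measure the spread between them. Permutation tests used scipy 1.17.1, exact or with 100000 resamples within groups.

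The 7 genes and all gene lists were chosen with earlier results of these data known. Named are the 7 members, list genes that passed the call thresholds or otherwise at most 3 of each list with the highest mean CPM, and the 3 genes most alike each member; the further list genes named were chosen after their values were seen. Alternatives were no batch covariate, DESeq2 1.42.0 with a batch covariate or after ComBat-seq (sva 3.50.0), RLE size factors, other filters, fits of only the genotypes compared, stranded counts, another threshold and leaving out each mouse. A GC offset, the omission of WT S776A homozygous mice 3 and 4, a fit of batch 1 alone and Xist above 100 CPM as a covariate were chosen after seeing the data. The fit was tested on simulated data with known changes.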

Additional observations from a re-analysis of the deposited data

Results flagged for a closer look

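Each gene, the zebrin index, the Purkinje marker mean, the GC tilt and the mitochondrial share were examined for a mouse far from the other 3 of its group, 66 groups of 4 mice in all. A mouse stood apart in 3 groups, and chance gives about 3.3. The zebrin index of SCA1 mouse 4 was -0.217, where the other SCA1 mice were between -0.466 and -0.431. The zebrin index of SCA1 S776A mouse 4 was -0.00276, where the other 3 were between -0.338 and -0.296. The mitochondrial share of SCA1 mouse 4 was 3.97%, where the lowest of the other SCA1 mice was at 3.32%. No explanation was examined for any of them.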

How the results depend on the processing

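No member was called as reported, and the count of members called became 1, always Plcb3, in 6 alternatives for SCA1 mice (only the genotypes compared, DESeq2 with a batch covariate, ComBat-seq then DESeq2, a GC offset, without homozygous mice 3 and 4, batch 1 only) and in 4 for the pooled expanded genotypes (only the genotypes compared, ComBat-seq, without homozygous mice 3 and 4, batch 1 only). At an adjusted p below 0.05 with no minimum fold change it was 2 in SCA1 mice. Leaving out each mouse gave 0 to 1 in both comparisons, with 1 only without WT S776A homozygous mouse 4. In the other 6 comparisons the count was 0 under every alternative run. The homozygous mice enter both the shared spread and the filter on low counts, which left 23384 genes without mice 3 and 4 and 22502 with them. The cause of these changes in the count was not tested.

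Signs of small log2 fold changes turned as follows. For Hspb1 in SCA1 mice the value was 0.042 with strand 1 counts, 0.014 with the GC offset and -0.14 to 0.013 leaving out a mouse. Without the batch covariate Hspb1 had -0.19 in SCA1 S776A, -0.39 in S776A double, 0.13 in WT S776A homozygous and -0.35 in the pooled mice, Prkcd 0.070 in SCA1 S776A, Plcb4 -0.041 in S776A double and Aldoc 0.042 in homozygous mice. In S776A double mice Plcb4 had -0.047 with the GC offset, -0.022 with Xist as a covariate and -0.035 to 0.031 leaving out a mouse, Ebf2 0.021 with strand 1 counts, and Hspb1 -0.090 to 0.093 leaving out a mouse. In homozygous mice without mice 3 and 4 Plcb3 had 0.054, Slc1a6 0.014, Plcb4 -0.038 and Prkcd 0.16, and Prkcd had -0.24 to 0.0058 leaving out a mouse.

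The zebrin index difference was -0.19 in SCA1 mice with Plcb4 and Ebf2 as zebrin-negative genes, -0.17 in S776A double mice with the GC trend removed, and 0.063 in homozygous mice without mice 3 and 4. It moved by less than 1 SD in the other 62 values. Leaving out a mouse gave -0.37 to -0.28 in SCA1, -0.24 to -0.12 in SCA1 S776A, -0.31 to -0.23 in S776A double and -0.55 to -0.16 in homozygous mice. The number of genes called over the whole table in SCA1 mice was 39 as reported, 68 with only the genotypes compared, 66 with DESeq2 and 117 after ComBat-seq. No paired analysis was possible because no number in the labels pairs mice of different genotypes.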
